A study of Mus musculus with 18 samples.

Results

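The genes described here encode parts of the primary cilium and of intraflagellar transport (IFT), the machinery that builds it, in hepatocytes isolated from mouse livers. Members were chosen by name from a list of 46 known cilium genes, not by their measured values, and 45 of them were found among the 31053 gene rows of the count tables (Tctn2 was not analysed here). The 45 genes were grouped by role as 11 IFT-B subunits, 6 IFT-A subunits, 4 ciliary motors, 9 genes of the BBSome and its assembly, 11 genes of the transition zone and 4 genes of the ciliary membrane and cargo delivery. RNA-seq libraries came from freshly isolated hepatocytes of male C57BL/6J mice. Old PH and Young PH hepatocytes were taken 48 h after partial hepatectomy (PH) from wild-type mice of 24 and 3 months, and Old and Young hepatocytes from mice of the same ages without PH (0 h), with 3 mice in each group. Old mice came from an aged rodent colony and Young mice from a commercial breeder, so supplier and age cannot be told apart. Smo (-) PH and Smo (-) hepatocytes (2 mice each) came from Smo-floxed mice given AAV8-TBG-Cre, a virus whose TBG promoter drives Cre in hepatocytes. They were taken 48 h after PH and without PH (0 h). Smo (+) PH and Smo (+) hepatocytes (1 mouse each) came, at the same times, from Smo-floxed mice given AAV8-TBG-Luc, which carries luciferase. All mice of this table thus had floxed Smo alleles and received a virus. Their age is listed as 3 months, and the authors give 2 to 3 months. Smo encodes Smoothened, the Hedgehog transducer that signals from the primary cilium.

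The primary cilium is a single, immotile projection of the cell membrane, built on a centriole that serves as its basal body. Trains of IFT-B and IFT-A complexes carry cargo outward with kinesin-2 and back with dynein-2, the BBSome takes membrane proteins out of the cilium, and the transition zone gates its base. In vertebrates Hedgehog signalling runs through this compartment, with Patched leaving and Smoothened entering it when ligand binds. Cilia are taken down before mitosis. In liver, cholangiocytes carry conspicuous primary cilia, whereas mature hepatocytes are generally described as lacking them, although they transcribe many of the same genes.

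RFX transcription factors bind X-box sequences in promoters of many ciliary genes, so the promoters of the members were searched for this feature, which they could share independently of their levels. RefSeq promoter windows (250 bases before to 50 after a start, GRCm38.p6) were matched by symbol for 41 of the 45 genes, with 45 windows in all (Ift80, Ift81, Ift122 and Tmem67 had none). The X-box core GTTGCC, read on both strands, was present in 18 of the 45 windows (40.0%), against 12.5% of all 32851 mouse windows. An inverted pair of arms, GTTNCC and GGNAAC with 0 to 3 bases between them, was present in 5 windows (11.1%), against 0.804% of all windows, and each of the 5 also held the core within that pair. Base composition differed as well, with a median GC content of 60.0% in the members' windows and 52.7% in all windows; among all windows within the members' GC range the core was present in 14.0% and the pair in 0.985%. Of the members called lower in Old hepatocytes (below), 6 of 12 with a window held the core, as did 3 of 9 called higher and 8 of 19 not called. A match is a description of letters, and binding was not measured. Shown here, 5′ to 3′ with core and pair in capitals, are the 250 bases before the start for the 4 genes with a pair in that stretch and for Ift27, whose core lies beside the start, and the 30 bases that hold the Tctn1 pair, downstream of its start.
Ift57, chr16:49699044-49699293, plus strand: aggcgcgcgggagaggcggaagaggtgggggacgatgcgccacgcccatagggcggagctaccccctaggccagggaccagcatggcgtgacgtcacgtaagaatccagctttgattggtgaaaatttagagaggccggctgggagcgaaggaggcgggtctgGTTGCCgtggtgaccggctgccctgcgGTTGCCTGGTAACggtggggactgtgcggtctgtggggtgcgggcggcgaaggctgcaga
Ift27, chr15:78174082-78174331, minus strand: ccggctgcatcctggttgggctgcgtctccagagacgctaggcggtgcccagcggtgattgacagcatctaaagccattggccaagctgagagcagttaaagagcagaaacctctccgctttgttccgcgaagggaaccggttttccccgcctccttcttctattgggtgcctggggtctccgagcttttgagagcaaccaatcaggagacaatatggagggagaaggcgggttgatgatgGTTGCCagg
Bbs7, chr3:36613390-36613639, minus strand: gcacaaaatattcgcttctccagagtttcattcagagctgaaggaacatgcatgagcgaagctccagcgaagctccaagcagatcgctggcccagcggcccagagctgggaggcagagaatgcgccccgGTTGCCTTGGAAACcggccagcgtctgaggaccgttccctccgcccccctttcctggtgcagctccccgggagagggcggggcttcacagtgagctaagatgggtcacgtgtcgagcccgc
Mks1, chr11:87852965-87853214, plus strand: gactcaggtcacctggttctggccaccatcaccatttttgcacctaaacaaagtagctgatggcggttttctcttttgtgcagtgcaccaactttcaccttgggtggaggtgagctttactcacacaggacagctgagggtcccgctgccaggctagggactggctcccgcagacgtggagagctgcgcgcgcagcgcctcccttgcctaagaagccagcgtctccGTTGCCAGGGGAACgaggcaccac
Tctn3, chr19:40612232-40612481, minus strand: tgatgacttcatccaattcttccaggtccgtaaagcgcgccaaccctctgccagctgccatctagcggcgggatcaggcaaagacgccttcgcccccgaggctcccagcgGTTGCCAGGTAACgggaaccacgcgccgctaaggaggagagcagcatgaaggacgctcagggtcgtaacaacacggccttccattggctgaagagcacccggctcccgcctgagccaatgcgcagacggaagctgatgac
Tctn1, chr5:122264411-122264440, minus strand: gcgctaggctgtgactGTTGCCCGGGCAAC

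Gene counts summed to 17089525 to 36646939 read pairs per library in the table of Old and Young mice and 16835686 to 19151731 in the Smo table. Read pairs assigned to no gene made up 2.03 to 3.07% of pairs in Old and 3.11 to 3.74% in Old PH libraries, against 26 to 33.9% in Young and 25.2 to 28.9% in Young PH libraries, so library composition and age cannot be told apart. The lone Smo (+) library also stood apart, since mitochondrial genes took 3.43 to 6.85% of gene counts in Smo (-) libraries and 22.5% in Smo (+), with 9.2% of pairs in no gene. Hepatocyte identity was clear, since 8 hepatocyte markers (such as Alb and Apoa1) summed to 50150 to 189600 CPM (counts scaled to library size, here by the trimmed mean of M values, TMM) over the Old and Young libraries. Markers of other liver cells summed to less, but some sums were near that of the members (below). Sinusoidal endothelial markers summed to 81.2 to 231 CPM in Old and 188 to 302 CPM in Young libraries. Stellate cell markers summed to 82.9 to 174 CPM in Old and 73.5 to 123 CPM in Young, and lymphocyte markers to 16.1 to 31.4 CPM in Old and 3.58 to 4.34 CPM in Young. In bulk samples fewer cells of a type and less RNA per cell cannot be told apart. The 8 cholangiocyte markers summed to 11.6 to 23.5 CPM in Old and 39 to 49 CPM in Young libraries, with all 8 above 0 in both groups, and 1 of 3 tested was called higher and 2 lower in Old. They summed to 27.2 to 48 CPM in Old PH and 29.1 to 38.3 CPM in Young PH libraries, and Krt19 was at 0 in Young PH. The 8 Kupffer cell markers summed to 76.7 to 424 CPM in Old and 52 to 79.4 CPM in Young libraries, and 8 of 8 were called higher in Old (edgeR). The part of these cells in the results was not tested.

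Members were expressed at low levels per length. In RPKM (CPM divided by union exon length) the median member was at 0.50 in Old and 0.56 in Young hepatocytes, against medians of 1.94 and 2.26 RPKM over all tested genes. Ift20, an IFT-B subunit that also sits at the Golgi, led in all 8 groups, with 20.6 ± 2.21 RPKM in Old and 6.45 ± 0.52 RPKM in Young hepatocytes (SD, n = 3 each). Ift52, an IFT-B core subunit, had 7.16 ± 0.66 RPKM in Old and 6.44 ± 0.57 RPKM in Young hepatocytes, and in Young its range overlapped that of Ift20. Kif7, a kinesin-like regulator of Hedgehog signalling at the cilium tip, and Tmem231, a transition zone membrane protein, lay at the bottom, each with 0 to 7 counts per library over the Old PH libraries, and with 2 to 4 (Kif7) and 4 to 7 (Tmem231) counts per library in Young. In Old hepatocytes 39 of 44 neighbouring pairs in the order of levels had overlapping ranges, and in Young 38 of 44, so most neighbours did not differ beyond their spread. Summed over the members, CPM were 210 to 227 in Old, 206 to 217 in Young, 246 to 266 in Old PH and 226 to 238 in Young PH libraries.

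Old hepatocytes differed from Young in both directions, gene by gene. Of 44 members that passed the filter on low counts (Tmem231 did not), 10 were higher and 14 lower in Old, where a call is an adjusted p under 0.05 in edgeR's quasi-likelihood test with Benjamini-Hochberg adjustment over all genes. Of all 14554 genes tested, 29.3% were called higher and 33.7% lower (63% in either direction, against 54.5% of the members), so the members' shares of 22.7% and 31.8% lie near the background and set the cilium genes apart in neither direction. The median log2 fold change was 0.04 over the members and -0.05 over all genes. At 48 h after PH 11 members were higher and 8 lower in Old PH than in Young PH, against 29.7% and 32.4% of all genes (62.1% in either direction). The comparisons at 0 h and 48 h share no library. Calls in the same direction at both times numbered 14 of the 24 called at 0 h and of the 19 called at 48 h, and 0 members were called in opposite directions. Over all genes 7182 were called in the same direction, of 9168 called at 0 h and 9035 at 48 h, and 88 in opposite directions. The share called the same way was thus larger over all genes than among the members. Fold changes of the members correlated between the times with r = 0.70 over 44 genes, as a description across genes, against 0.86 over all genes.

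**Figure D1:**
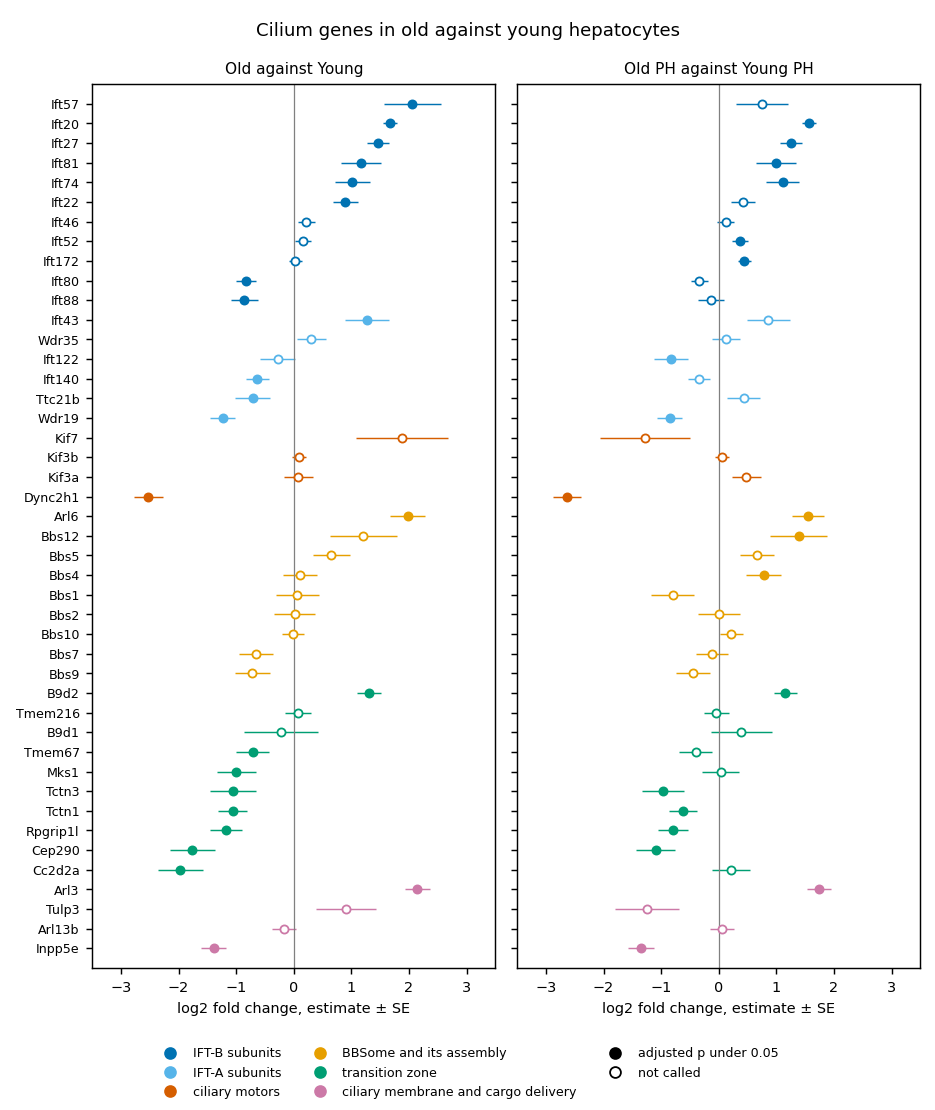
Log2 fold change with its SE (x axis) of each of the 44 tested members (y axis, coloured by role) in Old against Young (left) and Old PH against Young PH (right), filled where the adjusted p is under 0.05. IFT-B subunits make up 6 of the 10 genes called higher at 0 h and the transition zone 7 of the 14 called lower.

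The roles were unevenly represented. Among IFT-B subunits 6 of 11 were higher and 2 lower in Old, and 6 of 11 were higher and 0 lower in Old PH. Among 10 tested transition zone genes 1 was higher and 7 were lower in Old, and 1 was higher and 4 were lower in Old PH. IFT-A subunits were higher in 1 and lower in 3 of 6 cases at 0 h and lower in 2 at 48 h. These counts were not tested against other genes. Of all genes 29.3% were higher and 33.7% lower in Old, and 29.7% and 32.4% in Old PH. With a correction for length (described below), the transition zone genes still called lower were Tctn3, Mks1 and Cc2d2a at 0 h and Tctn3 at 48 h. Of the IFT-B subunits Ift88 was then lower at 0 h, and no IFT-A subunit was lower at either time. The IFT-B subunits then called higher were Ift20, Ift22, Ift27, Ift46, Ift57, Ift81 and Ift172 at 0 h. At 48 h they were Ift20, Ift27, Ift74, Ift80, Ift81 and Ift172. Wdr35 at 0 h and Ttc21b at 48 h were higher among IFT-A subunits, and B9d2 at both times in the transition zone. Of all genes 31.5% were then higher at 0 h and 31.1% at 48 h.

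Among IFT-B subunits Ift20 had 35.3, 29.7 and 29.3 CPM in Old libraries, against 9.94, 8.99 and 10.6 CPM in Young libraries. At 48 h it had 34.8, 32.1 and 36.8 CPM in Old PH, against 12.3, 11.1 and 11.6 CPM in Young PH. Every old library was above every young library, and the log2 fold change was 1.68 ± 0.12 (SE) at 0 h and 1.57 ± 0.12 at 48 h (edgeR adjusted p = 9.4e-08 and 1.9e-07). Ift27, a Rab-like GTPase that helps the BBSome leave the cilium, had 12.6, 8.73 and 7.69 CPM in Old and 3.71, 3.2 and 3.67 CPM in Young libraries, with 10.5, 10.5 and 9.6 CPM in Old PH and 4.07, 4.53 and 4.26 CPM in Young PH. The groups did not overlap at either time (log2 fold change 1.46 ± 0.19 and 1.25 ± 0.19). Ift57, a peripheral IFT-B subunit, had 0.778, 0.595 and 0.463 CPM in Old and 0.194, 0.095 and 0.141 CPM in Young libraries. Its groups were apart, with a log2 fold change of 2.06 ± 0.49, but these values rest on 8 to 13 counts in Old and 3 to 6 in Young. Of the other subunits, Ift81 (1.17) and Ift74 (1.02), which together bind tubulin, and the GTPase-like Ift22 (0.89) were also higher in Old on the log2 scale. Ift88, without which cilia do not form, had 2.45, 1.85 and 2.26 CPM in Old and 3.55, 4.43 and 3.93 CPM in Young libraries and was lower (-0.86 ± 0.24), as was Ift80 (-0.83). At 48 h Ift74 (1.11), Ift81 (0.99), Ift172 (0.44) and Ift52 (0.37) were higher in Old PH. The Ift81 and Ift52 calls were each lost in 4 of 12 fits without a library. Ift46 was called at neither time, with 28.4, 18.2 and 21.6 CPM in Old and 21.2, 17.9 and 19.7 CPM in Young libraries.

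The member with the largest decrease was a motor. Dync2h1, the heavy chain of the dynein that runs from the cilium tip back to its base, had 1.2, 1.98 and 2.43 CPM in Old libraries, against 10.5, 13.2 and 8.84 CPM in Young libraries. At 48 h it had 1.99, 1.95 and 1.47 CPM in Old PH, against 10, 11.1 and 12.7 CPM in Young PH. Every old library lay below every young library, at log2 fold changes of -2.53 ± 0.25 and -2.64 ± 0.25 (edgeR adjusted p = 1.6e-06 and 1.0e-06). The kinesin-2 subunits Kif3a and Kif3b, which drive the outward trains, were not called at either time, with Kif3b at 12.5, 12.6 and 12.8 CPM in Old and 12.8, 10.5 and 12.2 CPM in Young libraries. Among IFT-A subunits Wdr19 had 2.09, 2.64 and 1.91 CPM in Old and 5.62, 5.26 and 4.77 CPM in Young libraries, and 2.18, 2.84 and 2.3 CPM in Old PH against 4.78, 3.78 and 4.73 CPM in Young PH. It was lower without overlap at both times (-1.24 ± 0.22 and -0.86 ± 0.21). Ttc21b (-0.72) and Ift140 (-0.63) were also lower and Ift43 (1.27) higher in Old, and Ift122 was lower in Old PH (-0.83). The Ttc21b call was lost in 10 of 12 fits without a library, with -0.30 without Old replicate 1, and that of Ift140 in 2, also with -0.30 without Old replicate 1. With a correction for length Ttc21b (-0.034), Ift140 (-0.049) and Ift43 (0.83) were not called.

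Small GTPases were among the genes that were higher. Arl3, which releases lipid-modified cargo inside the cilium, had 14.3, 9.52 and 10.2 CPM in Old libraries, against 2.49, 2.19 and 3.02 CPM in Young libraries. At 48 h it had 9.45, 9.64 and 11.7 CPM in Old PH, against 3.55, 2.52 and 3.15 CPM in Young PH. The groups were far apart, with log2 fold changes of 2.14 ± 0.22 and 1.74 ± 0.21 (edgeR adjusted p = 1.8e-06 and 9.4e-06). Arl6, the GTPase that brings the BBSome to the membrane, had 2.63, 2.31 and 2.26 CPM in Old and 0.387, 0.602 and 0.819 CPM in Young libraries, then 3.51, 4.53 and 3.67 CPM in Old PH and 1.43, 1.26 and 1.3 CPM in Young PH. It was higher without overlap at both times (1.98 ± 0.30 and 1.55 ± 0.28). Arl13b, the exchange factor that activates Arl3, was not called, with 7.24, 5.09 and 5.61 CPM in Old and 6.87, 5.45 and 7.91 CPM in Young libraries. Inpp5e, a phosphoinositide phosphatase that sets the lipid makeup of the ciliary membrane, had 4.07, 4.96 and 6.36 CPM in Old and 14.9, 12.7 and 12.8 CPM in Young libraries, with 3.75, 3.82 and 2.11 CPM in Old PH and 8.5, 7.87 and 8.38 CPM in Young PH. Its groups did not overlap at either time (-1.39 ± 0.22 and -1.35 ± 0.22). Of its exon bases 20.3% overlap Pmpca on the other strand, and the strand setting of the counting is not given in the sources used here.

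Of 9 genes of the BBSome and its assembly, Arl6 was called at 0 h, and Arl6, Bbs12 and Bbs4 at 48 h. Bbs12, a chaperonin-like assembly factor, had 0.57, 0.311 and 0.392 CPM in Old PH and 0.165, 0.154 and 0.159 CPM in Young PH (1.39 ± 0.50), which rests on 7 to 12 counts in Old PH and 6 in each Young PH library. Bbs4, a BBSome subunit, was higher by 0.78 on the log2 scale, a call lost in 5 of 12 fits without a library. Among Bbs1, Bbs2, Bbs5, Bbs7, Bbs9 and Bbs10 there was no call at either time, which does not show that they were alike. Bbs9 had 3.29, 4.49 and 2.95 CPM in Old and 6.39, 5.76 and 5.48 CPM in Young libraries, without overlap (-0.72 ± 0.31, edgeR adjusted p = 0.055), and Bbs7 differed by -0.66 ± 0.29 (edgeR adjusted p = 0.064).

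Of the 10 tested transition zone genes, 7 were lower in Old hepatocytes and 1 was higher. Cep290, which links the membrane to the microtubules of the gate, had 0.299, 1.92 and 0.984 CPM in Old libraries, against 3.58, 3.99 and 3.19 CPM in Young libraries. At 48 h it had 3.51, 4.17 and 3.18 CPM in Old PH, against 7.48, 7.53 and 8.28 CPM in Young PH. The groups did not overlap (-1.77 ± 0.39 and -1.10 ± 0.34). Cc2d2a, a gate component of the same network, had 0.658, 1.12 and 2.43 CPM in Old and 6.07, 5.07 and 5.51 CPM in Young libraries (-1.97 ± 0.39, edgeR adjusted p = 5.6e-04), but 6.98, 11.7 and 12.4 CPM in Old PH and 10.4, 10.5 and 5.87 CPM in Young PH, where the groups overlapped and no call was made. Tctn3, of the tectonic family, had 0.479, 0.463 and 0.926 CPM in Old and 1.07, 1.52 and 1.33 CPM in Young libraries, and 0.807, 0.755 and 1.62 CPM in Old PH and 2.34, 2.16 and 1.75 CPM in Young PH, and was lower at both times (-1.05 and -0.98). Rpgrip1l (-1.17 and -0.80) and Tctn1 (-1.06 and -0.63) were likewise lower at 0 h and 48 h, the second with 25.5% of its exon bases under genes of the other strand. Mks1 (-1.002) and the receptor-like Tmem67 (-0.72) were called lower at 0 h and not at 48 h. The Tmem67 call was lost in 9 of 12 fits without a library and with a correction for length (-0.18), and the Mks1 call in 4 of 12 (-0.61 without Old replicate 1). The Tctn3 call was lost in 5 of 12 at 0 h and in 4 of 12 at 48 h. At 48 h the Tctn1 call was lost in 10 of 12 and that of Rpgrip1l in 2 of 12. The exception was B9d2, a small B9-domain protein, with 5.62, 3.7 and 4.17 CPM in Old and 1.71, 1.96 and 1.78 CPM in Young libraries, which was higher at both times (1.31 ± 0.21 and 1.15 ± 0.20).

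**Figure D2:**
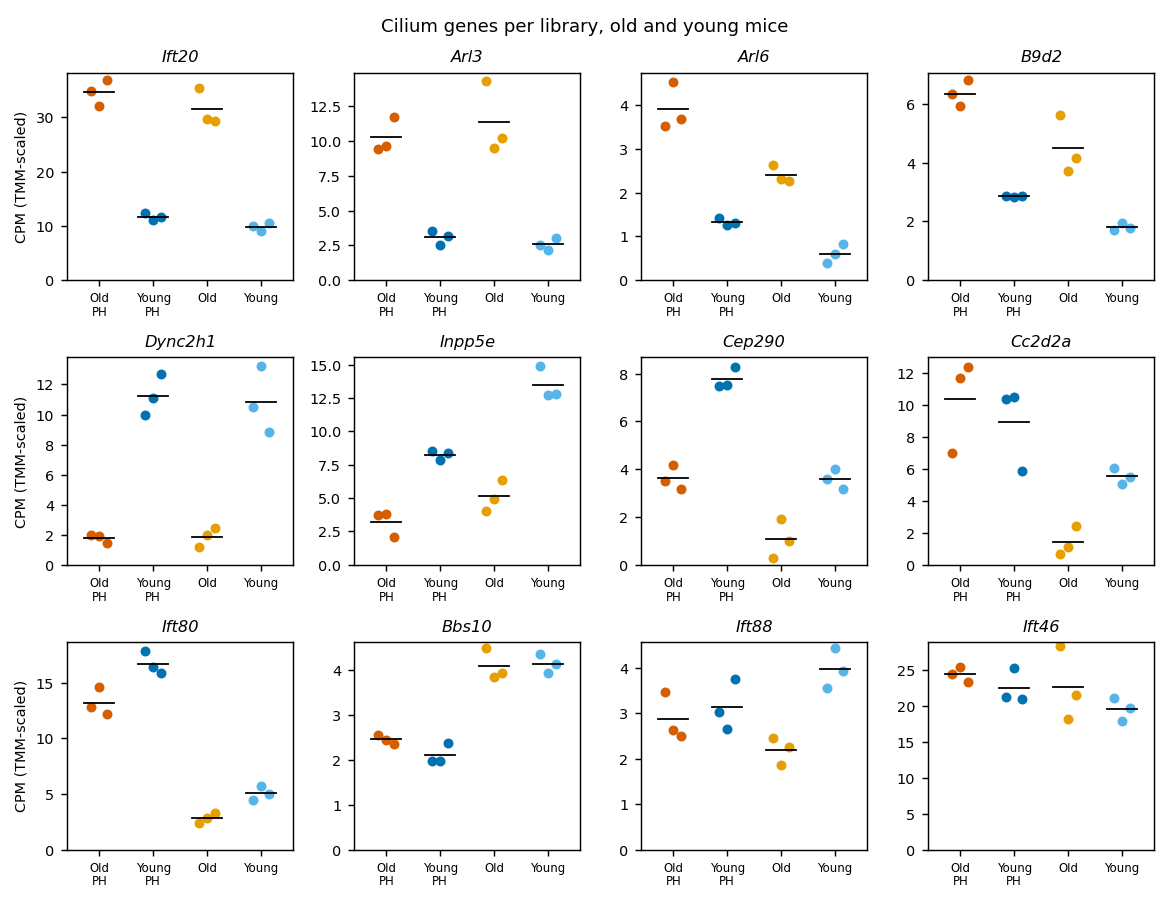
TMM-scaled CPM (y axis, from 0) of 12 members in each library of Old PH, Young PH, Old and Young mice (x axis), 3 points per group with a line at the mean. Ift20, Arl3, Arl6 and B9d2 lie higher and Dync2h1 and Inpp5e lower in old libraries at both times, and Ift80 lies higher after PH at both ages.

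The direction of the age difference went with gene length. The members called higher in Old had a median union exon length of 2573 bases (1454 to 5840), and those called lower one of 8314 bases (3273 to 16350). Across the 44 members the log2 fold change and exon length had a Spearman correlation of -0.64 at 0 h and -0.69 at 48 h, against -0.24 over all genes at each time, given as a description across genes that share the same libraries. With all genes put into 4 equal bins of length, those in the longest bin (6521 bases and above) were called higher in 10.6% and lower in 57.5% of cases in Old, and those in the shortest bin (up to 2486 bases) in 43.4% and 26.9%. The members followed this gradient, with 0 of 15 higher and 10 lower in the longest bin, and 4 of 7 higher and 0 lower in the shortest. With a correction for length fitted in each library, members called lower numbered 6 in place of 14 at 0 h and 3 in place of 8 at 48 h, and those called higher numbered 12 and 11. Of all genes 27.1% were then lower and 31.5% higher at 0 h, and 26.7% and 31.1% at 48 h, so the members' shares of lower calls lay below the background. Newly called higher were Tulp3 (1.58), Wdr35 (0.78), Ift46 (0.57) and Ift172 (0.41) at 0 h, and Ttc21b (1.00) and Ift80 (0.50) at 48 h. Cep290, Wdr19, Rpgrip1l and Tctn1 then lost their calls at both times, and Dync2h1 (-1.21 and -1.53), Inpp5e (-1.40 and -1.37), Tctn3 (-1.27 and -1.19), Arl3 (1.79 and 1.40), Ift20 (1.26 and 1.13) and Arl6 (1.57 and 1.16) kept theirs. Without Old replicate 1, 9 of 44 members in place of 14 were lower in Old, and 29.1% of all genes in place of 33.7%. Without Young PH replicate 3, 7 of 42 tested members were higher and 5 lower in Old PH, in place of 11 and 8 of 44. Of all genes 27.1% were then higher and 28.7% lower, in place of 29.7% and 32.4%. Without Young PH replicate 1, 5 of 42 were lower, against 29.3% of all genes.

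**Figure D3:**
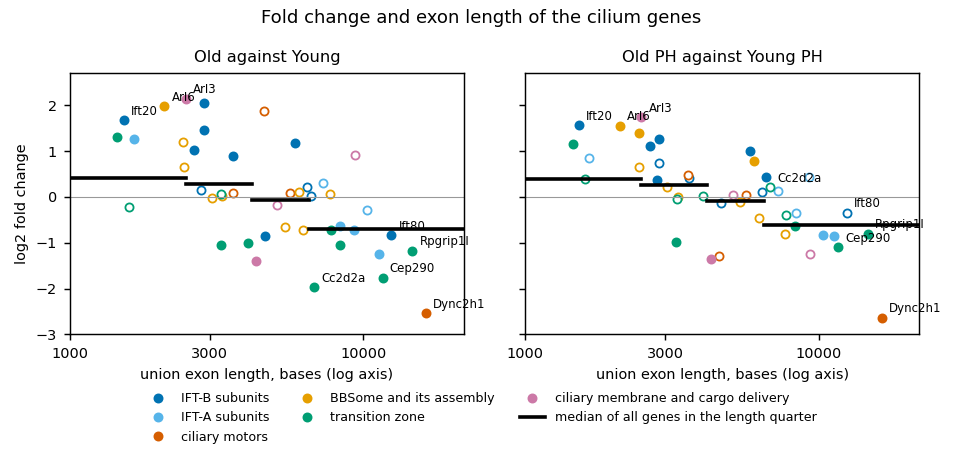
Log2 fold change (y axis) against union exon length in bases (x axis, log scale) of the 44 tested members in Old against Young (left) and Old PH against Young PH (right), filled where called, with bars at the median of all genes in each of 4 bins of length. Short members such as Ift20, Arl6 and Arl3 lie above 0 and long members such as Dync2h1, Cep290 and Rpgrip1l below it, along the gradient of all genes.

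Genes that regulate or surround the cilium program were compared from lists, whose counts stand beside 29.3% of all genes higher and 33.7% lower in Old, and 29.7% higher and 32.4% lower in Old PH. The counts and fold changes of these lists were not corrected for gene length. Of 6 tested RFX factors 5 were lower in Old and 5 in Old PH, and 0 were higher. Rfx3, a driver of ciliary genes, had 1.62, 2.25 and 1.27 CPM in Old libraries, against 7.71, 8.01 and 7.49 CPM in Young libraries, without overlap (-2.18 ± 0.24, edgeR adjusted p = 3.6e-06). Rfx7 (-2.62 and -1.82) and Rfx1 (-1.08 and -0.98) were lower at 0 h and 48 h as well, while Foxj1, the master factor of motile cilia, was at 0 to 0.178 CPM in these libraries. Of 14 tested genes that receive or transduce Hedgehog signals at the cilium 7 were lower in Old and 9 in Old PH, with 0 higher, among them at 0 h Gpr161 (-2.92) and Ptch1 (-1.83). Smo itself was not called, with 7, 11.1 and 11.5 CPM in Old and 11, 9.38 and 8.28 CPM in Young libraries. Of 22 basal body and distal appendage genes 3 were higher and 11 lower in Old and 4 higher and 8 lower in Old PH, with Cep350 (-2.19), Fbf1 (-2.07) and Pcm1 (-1.89) lowest and Cep19 (1.28), Rab11a (0.82) and Rab8a (0.62) highest at 0 h. A list of 16 tested train, BBSome and motor subunits outside the 46 genes had 5 higher and 0 lower in Old and 9 higher and 0 lower in Old PH, among them Dync2li1 (3.52 and 2.11) and Hspb11 (1.12 and 1.32). Of 16 nephronophthisis and other transition zone genes 3 were higher and 4 lower in Old, and 5 higher and 2 lower in Old PH, shares at or below those of all genes except the 5 higher.

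After PH few members were called in mice of either age. In Old PH hepatocytes 6 of 44 were higher and 3 lower than in Old, against 22.5% and 15.1% of all genes (37.6% in either direction), and in Young PH hepatocytes 5 were higher and 3 lower than in Young, against 17.8% and 16.4% (34.2% in either direction). The members' shares lay below the background in each, which does not show that the other members were unchanged. The median log2 fold change was 0.14 over the members and 0.075 over all genes in Old PH, and 0.23 and -0.0055 in Young PH. Division genes rose at the same time, with 12 of 12 called higher at both ages. Mki67 was at 110, 135 and 159 CPM in Old PH against 0.598, 3.31 and 3.18 CPM in Old libraries, and at 221, 276 and 215 CPM in Young PH against 2.36, 4.24 and 2.88 CPM in Young libraries. Mki67 does not stand for the list, since the 12 genes summed to 723 to 1035 CPM in Old PH and 573 to 782 CPM in Young PH. Of the 12, 5 were called higher and 2 lower in Old PH than in Young PH, against 29.7% and 32.4% of all genes.

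Ift80, a peripheral IFT-B subunit, rose at both ages. It had 12.8, 14.6 and 12.2 CPM in Old PH, against 2.39, 2.84 and 3.3 CPM in Old libraries, and 17.9, 16.4 and 15.9 CPM in Young PH, against 4.45, 5.76 and 4.97 CPM in Young libraries. Libraries after PH were all above those before it (log2 fold change 2.21 ± 0.17 and 1.72 ± 0.15, edgeR adjusted p = 5.6e-07 and 1.6e-06). Cep290, with the values given above, rose by 1.78 ± 0.39 in Old PH and 1.11 ± 0.33 in Young PH. Rpgrip1l, another component of the gate, had 3.23, 4.57 and 3.77 CPM in Old PH against 2.39, 1.19 and 1.79 CPM in Old libraries, and 5.86, 6.69 and 7.62 CPM in Young PH against 5.2, 3.71 and 3.28 CPM in Young libraries. It was higher after PH without overlap at both ages (1.10 ± 0.28 and 0.73 ± 0.25). Cc2d2a rose in Old PH (2.87 ± 0.39, edgeR adjusted p = 8.8e-05). Bbs7, a BBSome subunit, had 3.66, 4.71 and 5.53 CPM in Old PH and 1.14, 1.98 and 2.72 CPM in Old libraries (1.25 ± 0.30), and Ift74 was higher by 0.87. In Young PH Arl6 (1.13 ± 0.30) and B9d2 (0.65 ± 0.21) were called, with values as above. The Young PH calls of B9d2 and Rpgrip1l were each lost in 5 of 12 fits without a library, and that of Cep290 in 3. The Old PH call of Ift74 was also lost in 3 of 12.

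Bbs10, a chaperonin-like factor that assembles the BBSome, fell at both ages. It had 2.56, 2.44 and 2.35 CPM in Old PH, against 4.49, 3.83 and 3.93 CPM in Old libraries, and 1.98, 1.98 and 2.38 CPM in Young PH, against 4.36, 3.93 and 4.12 CPM in Young libraries. The groups did not overlap (-0.74 ± 0.20 and -0.97 ± 0.19). Inpp5e was also lower after PH at both ages (-0.67 ± 0.23 and -0.71 ± 0.21). Ift172, which turns the trains round at the cilium tip, had 10.7, 10.7 and 11 CPM in Young PH and 17, 17.5 and 15.5 CPM in Young libraries (-0.62 ± 0.11, edgeR adjusted p = 6.4e-04), but 13.7, 14.2 and 16.1 CPM in Old PH and 17.2, 17.3 and 16.3 CPM in Old libraries, where it was not called. Tulp3, an adaptor that brings receptors into the cilium with IFT-A, had 0.427, 0.355 and 0.147 CPM in Old PH and 0.299, 1.06 and 1.45 CPM in Old libraries, with overlap, on 3 to 9 and 5 to 25 counts, and its call (-1.57 ± 0.58) was lost on leaving out any library but Old replicate 1, with adjusted p up to 0.186 (edgeR).

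**Figure D4:**
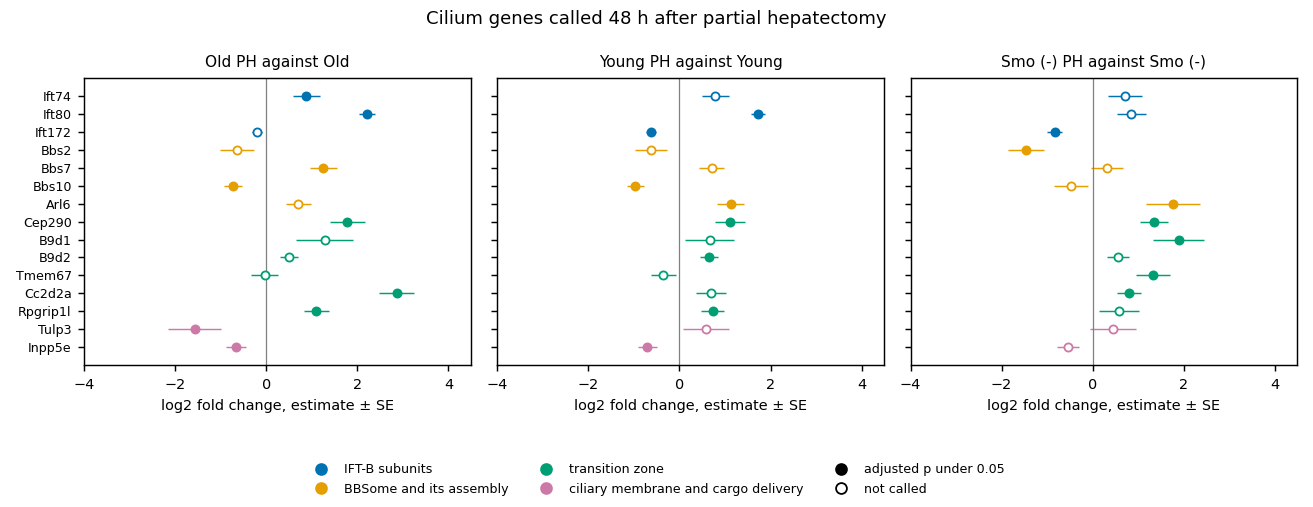
Log2 fold change with its SE (x axis) of the 15 members called in at least 1 comparison of 48 h after PH with 0 h (y axis, coloured by role), in Old, Young and Smo (-) mice from left to right, filled where the adjusted p is under 0.05. Cep290 is filled in all 3 panels, and Ift80 is filled in Old and Young.

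Whether Old and Young hepatocytes responded differently to PH was tested as an interaction. Of 44 members 1 was called, Cc2d2a, whose response was larger in Old by 2.18 ± 0.51 on the log2 scale (edgeR adjusted p = 0.037), against 2.27% of all genes called in that direction and 0.983% in the other. Some members passed an unadjusted p under 0.05 (edgeR) without being called, and the share of all genes at that level is not given here. Among them were Ttc21b (1.15) and Mks1 (1.03) with a more positive and Kif7 (-3.17) and Tulp3 (-2.16) with a more negative response in Old. The Kif7 value is the largest in size but rests on 0 to 7 counts per library in Old PH, 5 to 7 in Old, 6 to 16 in Young PH and 2 to 4 in Young. Ift57 (-1.31) did not pass at the unadjusted level. The Cc2d2a call was lost without any of 9 of the libraries, with adjusted p of up to 0.0891. Upper-quartile scaling moved the median of all genes by -0.16 in Old PH against Old and by -0.17 in the interaction. It gave 5 members higher and 4 lower in Old PH (15% and 21.6% of all genes), and in the interaction it called 0 members. Of all genes it called 93 with a more positive and 153 with a more negative response in Old, where TMM gave 331 and 143 and DESeq2 618 and 478. Cells other than hepatocytes moved in the same comparison, with Kupffer cell markers at 26.7 to 83.6 CPM in Old PH and 76.7 to 424 CPM in Old libraries and 7 of 8 lower, and 8 of 8 sinusoidal endothelial markers lower. Their part in the members' response was not tested.

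Of a list of 12 genes that take cilia down or cap the centriole, 10 were higher and 0 lower in Old PH, and 10 higher and 0 lower in Young PH, where 22.5% and 17.8% of all genes were higher, among them the mitotic kinases Plk1 (6.47 and 6.15), Nek2 (4.82 and 4.30) and Aurka (4.58 and 3.52), the last of which drives cilium disassembly. These kinases also belong to the division program. Basal body genes were higher in 14 of 22 cases and lower in 0 in Old PH, and higher in 9 and lower in 2 in Young PH, beside the same shares of all genes, with Poc1a, a centriole protein, highest at both ages (2.99 and 3.10).

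In Smo-floxed mice Smo was measured at 1.42 and 3.29 CPM in Smo (-) libraries, against 6.17 CPM in the Smo (+) library, and at 1.51 and 1.2 CPM in Smo (-) PH, against 11 CPM in Smo (+) PH. Values of Smo (-) libraries were below the Smo (+) value at both times, though neither difference was called (log2 fold change -1.40 ± 0.47 and -3.02 ± 0.45, edgeR adjusted p = 0.0531 and 0.0539). The fit borrows the spread of the Smo (-) pairs for each lone Smo (+) library and has 2 residual degrees of freedom. It tested 43 members (Bbs12 and Tmem231 did not pass the filter) among 13654 genes.

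Before PH 3 members were higher and 2 lower in Smo (-) than in Smo (+) hepatocytes, against 13.9% and 13.5% of all genes (27.4% in either direction). Wdr35, an IFT-A subunit, had 4.98 and 3.9 CPM in Smo (-) libraries and 1.82 CPM in Smo (+) (1.29 ± 0.41). Kif3b had 15.2 and 13.8 CPM in Smo (-) and 8.7 CPM in Smo (+) (0.74 ± 0.24), and Ift52 had 22.5 and 23.3 CPM in Smo (-) and 14.5 CPM in Smo (+) (0.65 ± 0.22). Tulp3 had 0.849 and 1.46 CPM in Smo (-) and 3.87 CPM in Smo (+) (-1.75 ± 0.57), and Tctn1 had 2.83 and 4.14 CPM in Smo (-) and 8.62 CPM in Smo (+) (-1.31 ± 0.35). Adjusted p in edgeR lay between 0.025 and 0.050 for the 5 genes, and each call was lost without Smo (-) replicate 1 and with DESeq2. Markers of other cells also differed from the lone Smo (+) library, with Kupffer cell markers at 87.5 to 125 CPM in Smo (-) and 419 CPM in Smo (+), sinusoidal endothelial markers at 145 to 303 CPM in Smo (-) and 867 CPM in Smo (+), and cholangiocyte markers at 15.7 to 15.8 CPM in Smo (-) and 28.8 CPM in Smo (+). All 8 of 8 Kupffer and 8 of 8 endothelial markers were lower in Smo (-). Cholangiocyte markers went both ways, since of 7 tested 4 were lower in Smo (-) and 2 (Sox9 and Pkhd1) higher, with Cftr and Tspan8 at 0 in Smo (-). Their part in the members' values was not tested. Upper-quartile scaling moved the median of all genes by -0.13 and gave 0 members higher and 2 lower (9.68% and 15.1% of all genes).

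**Figure D5:**
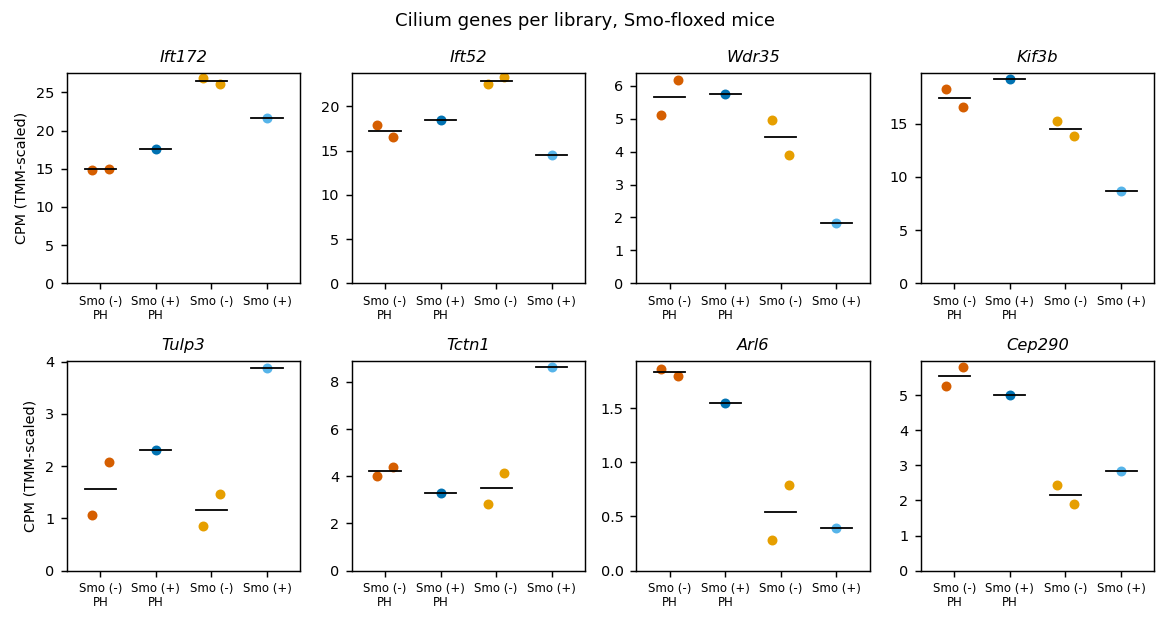
TMM-scaled CPM (y axis, from 0) of 8 members in each library of Smo (-) PH, Smo (+) PH, Smo (-) and Smo (+) mice (x axis), with 2 libraries in each Smo (-) group and 1 in each Smo (+) group and a line at the mean. The lone Smo (+) library is lowest for Wdr35, Kif3b and Ift52 and highest for Tulp3 and Tctn1, and Arl6 and Cep290 are higher after PH with either virus.

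At 48 h after PH 0 of 43 members were called between Smo (-) PH and Smo (+) PH by edgeR, by DESeq2 and by limma-voom, and 1 (Ift140, -0.60 ± 0.24) had an unadjusted p under 0.05 in edgeR, while 0.0366% of all genes were called higher and 0.0879% lower. The largest differences were in Ift43 (1.10 ± 0.50), Kif7 (0.96 ± 0.98), Bbs1 (-0.78 ± 0.47) Dync2h1 (-0.74 ± 0.38), B9d1 (0.67 ± 0.62) and Tmem216 (0.60 ± 0.41). Dync2h1 had 2.82 and 2.76 CPM in Smo (-) PH and 4.65 CPM in Smo (+) PH.

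Smo (-) hepatocytes after PH had 5 of 43 members higher and 2 lower than Smo (-) hepatocytes before PH, against 16% and 14.2% of all genes (30.2% in either direction). The median log2 fold change was 0.34 over the members and 0.0069 over all genes. B9d1, a gate component, had 1.71 and 1.8 CPM in Smo (-) PH and 0.566 and 0.366 CPM in Smo (-) (1.89 ± 0.55). Arl6 had 1.86 and 1.8 CPM in Smo (-) PH and 0.283 and 0.792 CPM in Smo (-) (1.77 ± 0.59), and Cep290 had 5.28 and 5.8 CPM in Smo (-) PH and 2.43 and 1.89 CPM in Smo (-) (1.35 ± 0.31). The groups did not overlap for any of these 3 genes. Tmem67 had 3.32 and 3.32 CPM in Smo (-) PH and 1.47 and 1.16 CPM in Smo (-) (1.33 ± 0.38), and Cc2d2a had 8.35 and 6.36 CPM in Smo (-) PH and 3.96 and 4.51 CPM in Smo (-) (0.79 ± 0.27). Bbs2, a BBSome subunit, had 1.11 and 0.967 CPM in Smo (-) PH and 3.06 and 2.68 CPM in Smo (-) (-1.46 ± 0.40), and Ift172 had 14.8 and 15 CPM in Smo (-) PH and 26.9 and 26.1 CPM in Smo (-) (-0.83 ± 0.16, edgeR adjusted p = 0.0049). Ift172 alone among the 7 kept its call in every alternative tried. Leaving out either Smo (-) PH library leaves 1 in that group. The median log2 fold change over the members was then 0.23 without replicate 2 and 0.40 without replicate 1. All 8 of 8 Kupffer cell markers were higher in Smo (-) PH (290 to 336 CPM) than in Smo (-) (87.5 to 125 CPM), and their part was not tested.

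Between the lone Smo (+) PH and Smo (+) libraries, which allow no test, 13 of 43 members had a log2 ratio above 1 and 6 below -1, against 14% and 18.4% of all genes. Tmem67 (1.99), Ift74 (1.88) and Arl6 (1.72) were highest and Kif7 (-2.23), Ift43 (-1.59) and Tctn1 (-1.36) lowest. In the Smo (+) PH and Smo (+) libraries these rest, in that order of genes, on 57 against 8, 70 against 11, 31 against 5, 8 against 29, 28 against 56 and 66 against 109 counts. Cep290 had 5 CPM in Smo (+) PH and 2.85 CPM in Smo (+), and Ift80 had 7 CPM in Smo (+) PH and 2.45 CPM in Smo (+).

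The 3 replicated comparisons of PH share no library. Over 43 members tested in all of them, 16 had a positive fold change in each and 6 a negative one, while 29.3% of the 13135 genes tested in all were positive in each and 24.8% negative. The positive members included Cep290, Cc2d2a, Rpgrip1l, B9d1, B9d2 and Tctn3 of the transition zone, and Ift80, Ift74 and Arl6. The negative members were Ift52, Ift172, Bbs2, Bbs10, Tmem216 and Inpp5e. Cep290 was the only member called in all 3, and 15 members were called in at least 1.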

How the data were processed

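Polyadenylated RNA of hepatocytes isolated by collagenase perfusion was sequenced as paired reads. The deposited values are raw gene counts. The authors trimmed reads with Trim Galore, aligned them to mm10 with STAR (2.5.0c), removed duplicates with Picard and SAMtools and counted with HTSeq. The annotation release and the strand setting are not given in the sources used here. The 12 libraries of Old and Young mice and the 6 Smo libraries are separate tables and were fitted separately. Genes in the Smo table were matched by identifier.

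Counts were scaled by TMM and fitted with edgeR (4.0.16, R 4.3.3), using filterByExpr (minimum count 10, total 15), 1 mean per group and the quasi-likelihood test, with Benjamini-Hochberg adjustment over all genes and calls at 0.05. A prior count of 2 was used for log2 CPM. Residual degrees of freedom were 8 and 2. Depth limits precision for members with few counts. Each mouse gave 1 library. The members and lists were chosen with earlier results of these data known. By the rule for named genes, up to 5 called members each way per comparison have per-library values, other called members have fold changes, up to 6 members with the largest differences stand in where fewer than 4 were called, and up to 3 called genes each way are named per pathway list. Rfx3, Ift46, Kif3b and Arl13b values, among others, were added after their values were seen. Alternatives were DESeq2 (1.42.0), limma-voom (3.58.1), other scalings and filters, fits of only the groups compared, an additive virus and time model, a replicate block, a length correction (lowess, span 0.3, union exon length in GENCODE) and leaving out each library. The fit was run on simulated data with 200 changed genes. In Old against Young 9168 genes were called, so the simulation does not show how the fit behaves under changes that wide. Promoters came from RefSeq. The deposited counts carry no molecular identifiers.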

Additional observations from a re-analysis of the deposited data

Results flagged for a closer look

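The response of Cc2d2a to PH differed between ages by the interaction test, by 2.18 ± 0.51 on the log2 scale (edgeR adjusted p = 0.037). It had 6.98, 11.7 and 12.4 CPM in Old PH against 0.658, 1.12 and 2.43 CPM in Old libraries, and 10.4, 10.5 and 5.87 CPM in Young PH against 6.07, 5.07 and 5.51 CPM in Young libraries. The call was lost in 9 of 12 fits without a library. In the alternatives that lost it, which reuse the same libraries, the difference was 1.94 to 2.36, with adjusted p of 0.0574 to 0.0891 (edgeR or limma-voom). This 1 call among 44 members is 2.27%, and 2.27% of all genes were called in that direction.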

How the results depend on the processing

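Leaving out each library of Old and Young mice in turn left 42 to 44 members tested. In Old against Young 10 to 14 were higher and 9 to 15 lower, against 26.8 to 32.3% and 29.1 to 34.1% of all genes. In Old PH against Young PH 7 to 13 were higher and 5 to 9 lower, against 26.3 to 31.7% and 28.3 to 32.2%. Leaving out gave 2 to 7 higher and 2 to 4 lower in Young PH against Young (13.7 to 18.7% and 11.7 to 18.8% of all genes). In Old PH against Old it gave 5 to 7 and 1 to 4 (16.8 to 22.3% and 11.8 to 16.7%). In the interaction it gave 0 to 1 and 0 to 1 (0.287 to 2.26% and 0.116 to 3.32%). In the Smo table it left 1 library in a further group, so only median log2 fold changes of the members are given. These were 0.097 to 0.28 in Smo (-) against Smo (+) and 0.22 to 0.40 in Smo (-) PH against Smo (-). Lone libraries were assumed to vary like the other groups. The length correction gave 6 members lower in Old and 3 in Old PH, against 27.1% and 26.7% of all genes. It turned Ift80 to 0.18 in Old and Rpgrip1l to 0.045 in Old and 0.21 in Old PH on the log2 scale. Fits of only the 2 groups compared gave 12 of 41 members higher and 5 lower in Young PH, against 23.6% and 21.8% of all genes. In Old PH they gave 2 of 40 higher and 1 lower, against 15.6% and 14.1%. In Young PH limma-voom gave 8 higher (19.4% of all genes) and DESeq2 5 lower (18.8%). In the interaction limma-voom and upper-quartile scaling gave 0 higher (2.01% and 0.639% of all genes). In Smo (-) against Smo (+), DESeq2 gave 0 higher and 0 lower, against 9.81% and 9.21% of all genes. The additive model also gave 0 and 0, but it called 0 of all 13654 genes. Limma-voom and upper-quartile scaling gave 0 higher (12.2% and 9.68% of all genes), and RLE scaling 1 higher (12.6%). A filter at CPM above 1 gave 0 higher and 1 lower (13.6% and 14.2%). In Smo (-) PH against Smo (-) DESeq2 gave 1 higher and 1 lower, against 12% and 11.6% of all genes. The cause was not tested beyond what the smaller fits fix by construction. The median level in Young was 0.83 RPKM with the longest transcript in place of 0.56. Upper-quartile scaling moved the median of all genes by 0.14 in Old against Young.

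With the replicate block 1 member was lower in Old PH against Old (14.6% of all genes) and 0 were higher in the interaction (1.5%). In Smo (-) against Smo (+) 4 were lower (15.7%). Libraries share only a number, since same-numbered deviations correlated at -0.112 to 0.226 in the table of Old and Young mice and at -0.0394 in the Smo table.

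Calls kept in every alternative numbered 12 of 24 in Old against Young, 9 of 19 in Old PH against Young PH, 4 of 8 in Young PH, 3 of 9 in Old PH, 1 of 7 in Smo (-) PH against Smo (-) and 0 of 5 in Smo (-) against Smo (+).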
